A study of Phaseolus vulgaris with 36 samples.

Results

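The pod transcriptome of the common bean (Phaseolus vulgaris) accession SXB405 was compared with that of the accession ICA Bunsi at R8, the stage of pod filling. Both accessions are domesticated, both carry the phenotype label middle dehiscent, and the plants were untreated. The comparison used 3 libraries of SXB405 and 3 of ICA Bunsi, 6 of the 36 libraries of the series, chosen by their labelled accession and stage. The other libraries came from the same accessions at R7 (first pod) and R9 (mature pod), and from all 3 stages of MIDAS (domesticated, indehiscent) and G12873 (labelled wild-type and full dehiscent). The labels do not tell if replicate libraries represent different plants. The p-values therefore reflect the spread between replicate libraries, estimated over all 36 libraries in 12 groups, and that spread may be technical.

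A bean pod is the fruit, with a wall that encloses the seeds. From pod filling on, the wall passes from growth and storage in green tissue towards drying and lignification. How far seeds contributed to the pod RNA was not tested. Dehiscence, the opening of the dry pod along its sutures, depends on lignified fibres in the sutures and the wall, and domestication has reduced it in many beans. Accessions with the same dehiscence label can still differ in the time at which the pod matures and in many genes without a part in it.

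The R8 libraries held 8703732, 11034039 and 10273849 estimated counts in SXB405, and 12131784, 9498756 and 8222726 in ICA Bunsi. A set of 10 abundant genes that vary together over the whole series took 19.45%, 3.2% and 5.09% of these counts in SXB405 and 44.12%, 17.85% and 13.49% in ICA Bunsi. In a fit without the 50 highest genes, from which the set was drawn, 560 genes were called higher and 1007 lower in SXB405. With all genes these counts were 578 and 991, by the criteria given below. Of the genes called in that main fit, 1544 (98.4%) kept their call. Removing the set does not restore the counts it took from other genes, and the part of that loss was not tested. The correlation of log2 CPM (counts scaled to the effective library size) across genes was between 0.947 and 0.982 for pairs of SXB405 libraries and between 0.935 and 0.972 for pairs of ICA Bunsi libraries. Between the accessions it was between 0.88 and 0.953, and it was highest for SXB405 replicate 1 with ICA Bunsi replicate 1. SXB405 replicate 1 stood nearer to ICA Bunsi than the other two SXB405 libraries did, and ICA Bunsi replicate 2 lay farthest from SXB405. The identifiers were not paired with gene names in the files, and 0 of 27433 matched the reference table, so genes are given by identifier and without function.

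At R8, 578 genes were higher and 991 were lower in SXB405 than in ICA Bunsi. These were 2.76% and 4.73% of the 20966 genes tested, and 7.48% together. A call required a difference of at least 2-fold and, in edgeR's quasi-likelihood test, an adjusted p (Benjamini-Hochberg) under 0.05. The median log2 difference of the called genes was 1.77 for the higher and -2.09 for the lower ones, against -0.01 over all genes tested. Of the higher genes 255 differed by at least 4-fold and 90 by at least 16-fold. Among the lower genes these counts were 539 and 136. In bulk pod RNA, fewer cells of a type and less RNA per cell cannot be told apart.

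The genes higher in SXB405 were the more abundant ones. Their median level, as the mean of a group, was 15.4 CPM in SXB405 against 4.11 CPM in ICA Bunsi, while for the lower genes it was 1.41 CPM in SXB405 against 6.21 CPM in ICA Bunsi. The 578 higher genes took 8.36%, 18.6% and 17.3% of all TPM (abundance scaled for transcript length and library size) in the SXB405 libraries, against 1.98%, 3.84% and 4.61% in the ICA Bunsi libraries. These genes were called higher from the same libraries, so a larger share in SXB405 is mostly by construction. SXB405 replicate 1 was nearest to ICA Bunsi, and no ICA Bunsi library reached its share. Phvul.011G204600 and Phvul.010G144300 alone had 54666 and 39113 TPM in SXB405 replicate 2. The 991 lower genes, chosen in the same way, took 0.78%, 0.438% and 0.485% of TPM in SXB405 and 0.864%, 3.11% and 1.81% in ICA Bunsi. A large co-varying set lowers the TPM of all other genes in the same library.

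The 6 libraries of a called gene were mostly apart. All SXB405 libraries lay above all ICA Bunsi libraries for 525 of the higher genes (90.8%), against 13.9% of all genes tested, and below them for 854 of the lower genes (86.2%), against 14.9%. The test and this count use the same values. SXB405 replicate 1 was the SXB405 library nearest to ICA Bunsi in 453 of the higher genes (78.4%) and in 695 of the lower ones (70.1%). ICA Bunsi replicate 2 was the ICA Bunsi library farthest from SXB405 in 314 of the higher genes (54.3%) and 647 of the lower ones (65.3%).

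The size of the lists rested on single libraries. Without SXB405 replicate 1 there were 1078 higher and 1566 lower genes. Without SXB405 replicate 2 there were 270 and 294, without SXB405 replicate 3 there were 316 and 405, and without ICA Bunsi replicate 2 there were 311 and 443. A fit on the 6 R8 libraries alone called 211 higher and 290 lower genes. No gene called in the full fit was called in the opposite direction in any of these. Of the 1569 genes, 212 higher (36.7%) and 232 lower ones (23.4%) were called with all libraries and with each of the 6 left out in turn. These genes had a median log2 difference of 2.88 where higher and -2.66 where lower.

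**Figure D1:**
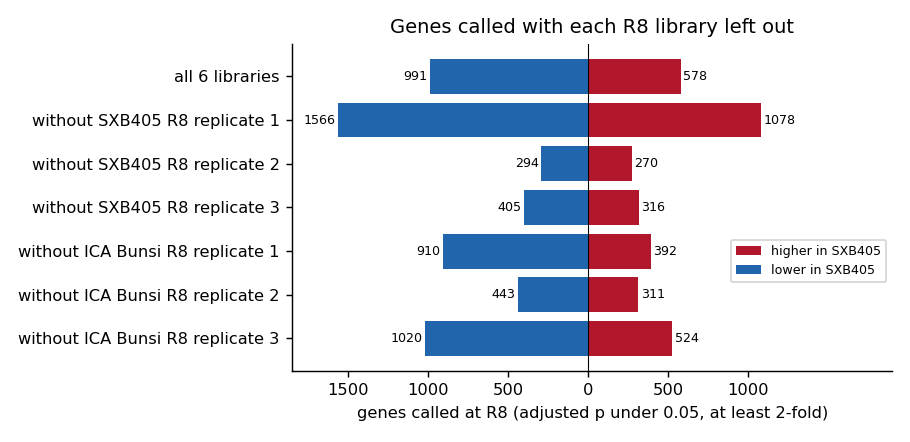
Number of genes called at R8 (horizontal axis) with all 6 libraries and with each R8 library of SXB405 or ICA Bunsi left out (rows). Red bars count genes higher in SXB405 and blue bars genes lower in SXB405. With all libraries the counts are 578 and 991; they grow only without SXB405 replicate 1 (1078 and 1566), apart from a count of 1020 lower genes without ICA Bunsi replicate 3.

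The largest differences among genes with at least 1 CPM in both groups were those of Phvul.004G158200 and Phvul.010G144300, higher in SXB405, and Phvul.006G107300 and Phvul.009G227800, lower in SXB405. Phvul.004G158200 had 277, 922 and 949 CPM in SXB405 and 1.32, 0.571 and 8.47 CPM in ICA Bunsi. All SXB405 libraries were far above all ICA Bunsi libraries, with a log2 difference of 7.69 ± 0.93 (SE, n = 3 each, edgeR adjusted p = 2.96e-06). Phvul.010G144300 had 9513, 30733 and 26876 CPM in SXB405 against 199, 33.8 and 101 CPM in ICA Bunsi. The groups were again far apart, SXB405 replicate 1 was the lowest SXB405 library, and the log2 difference was 7.65 ± 1.05 (edgeR adjusted p = 1.62e-05). Both genes kept their call in each alternative that was run for them.

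Phvul.006G107300 had 4.19, 0.28 and 1.31 CPM in SXB405 and 4.99, 175 and 4.28 CPM in ICA Bunsi. ICA Bunsi replicate 2 alone was high, and the other ICA Bunsi libraries were next to SXB405 replicate 1. Its log2 difference of -5.05 ± 1.29 (edgeR adjusted p = 0.0164) was -1.32 in the smallest of its 16 alternatives, and the call was lost in 6 of them, among them the fit without ICA Bunsi replicate 2. Phvul.009G227800 had 4.09, 0.56 and 0.771 CPM in SXB405 and 15.3, 128 and 5.96 CPM in ICA Bunsi. The groups did not overlap, with ICA Bunsi replicate 2 highest, and the log2 difference was -4.84 ± 1.05 (edgeR adjusted p = 0.00465). Without ICA Bunsi replicate 2 the difference was -2.61 and was not called (edgeR adjusted p = 0.106), and the call was lost in 3 of 16 alternatives.

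Among the called genes with the highest TPM, the most abundant one higher in SXB405 was Phvul.011G204600. It had 29089, 54666 and 56674 TPM in SXB405 and 8961, 23315 and 16254 TPM in ICA Bunsi. SXB405 replicate 1 was only a little above the highest ICA Bunsi library. In CPM its log2 difference was 1.36 ± 0.38 (edgeR adjusted p = 0.0234), and the call was lost in 6 of 15 alternatives. Phvul.010G144300 came next, with 11301, 39113 and 32438 TPM in SXB405 and 124, 41.5 and 153 TPM in ICA Bunsi.

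The most abundant genes lower in SXB405 were Phvul.001G251000 and Phvul.007G002400. Phvul.001G251000 had 2178, 747 and 877 CPM in SXB405 and 2669, 6678 and 1943 CPM in ICA Bunsi. The groups overlapped, since SXB405 replicate 1 exceeded ICA Bunsi replicate 3. The log2 difference was -1.57 ± 0.5 (edgeR adjusted p = 0.0439). Phvul.007G002400 had 854, 144 and 215 CPM in SXB405 and 1486, 3772 and 789 CPM in ICA Bunsi, with the same overlap and a log2 difference of -2.32 ± 0.63 (edgeR adjusted p = 0.0187). In both genes ICA Bunsi replicate 2 was the highest library, and both calls were lost without it, without SXB405 replicate 2 and without SXB405 replicate 3.

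**Figure D2:**
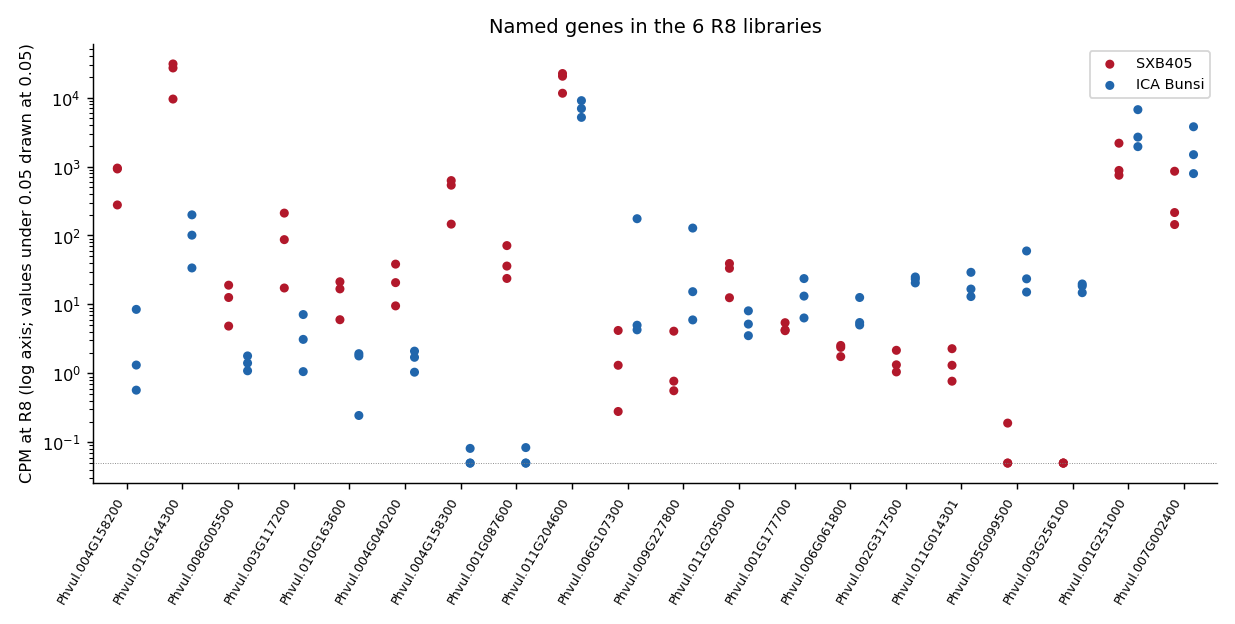
CPM at R8 (vertical log axis) of the genes named by the rule, 1 point per library, with SXB405 in red left of ICA Bunsi in blue. The genes on the left, up to Phvul.011G204600, were selected as higher or more positive in SXB405, and the others as lower or more negative; Phvul.011G205000 is in the second set because its difference was larger at R7, although SXB405 was higher at R8. Phvul.004G158300 and Phvul.001G087600 are near 0 in ICA Bunsi and Phvul.003G256100 and Phvul.005G099500 near 0 in SXB405.

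Some called genes were near 0 in 1 of the 2 accessions at R8. Of the higher genes, 76 had fewer than 3 counts in each ICA Bunsi library, and 36 of them had none. Over all genes tested, 587 (2.8%) were under 3 counts in each ICA Bunsi library. Of the lower genes, 147 had fewer than 3 counts in each SXB405 library, and 52 had none, against 895 of all genes tested (4.27%). Near-absence in ICA Bunsi held at R7 and R9 as well for 40 of the 76 genes (52.6%), and near-absence in SXB405 held there for 24 of the 147 (16.3%). Outside the co-varying set, ICA Bunsi held 1992859 counts in R7 replicate 3, and 1742591 and 908225 in R9 replicates 1 and 3. SXB405 held 14904905, 13507080 and 10055086 at R7. A gene stays under 3 counts more easily in a small library, so the shares of the accessions cannot be compared. The share over all genes tested was not taken. Of the 76 genes, 48 had 3 or more counts in every G12873 library at R8 and 42 in every MIDAS library, and of the 147 genes 68 and 60 did. The share over all genes tested was not taken here either. These counts also depend on depth, and MIDAS R8 replicate 2 held only 3098618 counts outside the co-varying set. The level where detected was low for most, with a median of 2.09 CPM for the 76 genes in SXB405 and 0.952 CPM for the 147 genes in ICA Bunsi.

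The highest of these genes in SXB405 was Phvul.004G158300, with 146, 536 and 625 CPM in SXB405 and 0, 0.0816 and 0 CPM in ICA Bunsi. That is a single count in ICA Bunsi, and the ratio was 15148 with a 95% exact interval from 2719 to 598317 that covers counting error only. Phvul.001G087600 had 23.8, 36 and 71.3 CPM in SXB405 and 0, 0 and 0.0839 CPM in ICA Bunsi, again 1 count, with a ratio of 1521 (95% exact interval 273 to 60059). Both were far apart between the accessions in every library. In the other direction, Phvul.003G256100 had 0, 0 and 0 CPM in SXB405 and 19.8, 14.8 and 18.5 CPM in ICA Bunsi. It was at least 62.1-fold lower in SXB405, taking 3 counts in each SXB405 library as the limit that a count of 0 allows. Phvul.005G099500 had 0.19, 0 and 0 CPM in SXB405 and 23.5, 59.6 and 15.1 CPM in ICA Bunsi, 2 counts against many, with a ratio of ICA Bunsi to SXB405 of 618 (95% exact interval 171 to 5102). Phvul.003G256100 and Phvul.005G099500 were called lower in SXB405 at R7 and R9 as well. At R8 Phvul.003G256100 averaged 0.321 CPM in G12873 and 1.92 CPM in MIDAS, so only ICA Bunsi was high. Phvul.005G099500 averaged 6.77 CPM in G12873 and 104 CPM in MIDAS at R8.

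The difference at R8 was then set beside those at R7 and R9, which come from other libraries. The 3 stages share the filter and each gene's estimate of the spread, so their calls are not fully independent. SXB405 had 535 higher (2.55%) and 364 lower genes (1.74%) at R7, 4.29% together, and 663 higher (3.16%) and 926 lower genes (4.42%) at R9, 7.58% together. In ICA Bunsi at R9 the co-varying set took 64.14% and 71.79% of the counts in replicates 1 and 3, and at R7 72.87% in replicate 3. In SXB405 at R9 it took 54.07% in replicate 1. Those libraries have fewer counts for all other genes.

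Of the 578 genes higher at R8, 144 (24.9%) were also called higher at R7 and 1 was called lower. At R9, 186 (32.2%) were called higher and 4 lower. Their median log2 difference was 0.68 at R7 and 0.86 at R9, against 0.03 and 0.04 over all genes tested. Of the 991 lower genes, 132 (13.3%) were called lower at R7 and 227 (22.9%) at R9, while 7 and 1 were called higher. Their median log2 difference was -0.37 at R7 and -0.97 at R9. The difference was positive in 78.4% of the higher genes at R7 and in 79.2% at R9, and in 33.5% and 19.1% of the lower genes, against 52.2% of all genes tested at either stage. The call was made at R8 and at neither other stage for 346 of the higher genes (59.9%) and 708 of the lower ones (71.4%). A call missed at another stage does not show that the difference was absent there.

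The genes called whichever library was left out were called more often at the other stages. Of the 212 higher ones, 106 were called higher at R7 and 131 at R9, and 84 at both. Of the 232 lower ones, 75 were called lower at R7 and 115 at R9, and 56 at both. Their median log2 difference where higher was 1.64 at R7 and 2.29 at R9, and where lower it was -0.76 at R7 and -1.58 at R9.

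**Figure D3:**
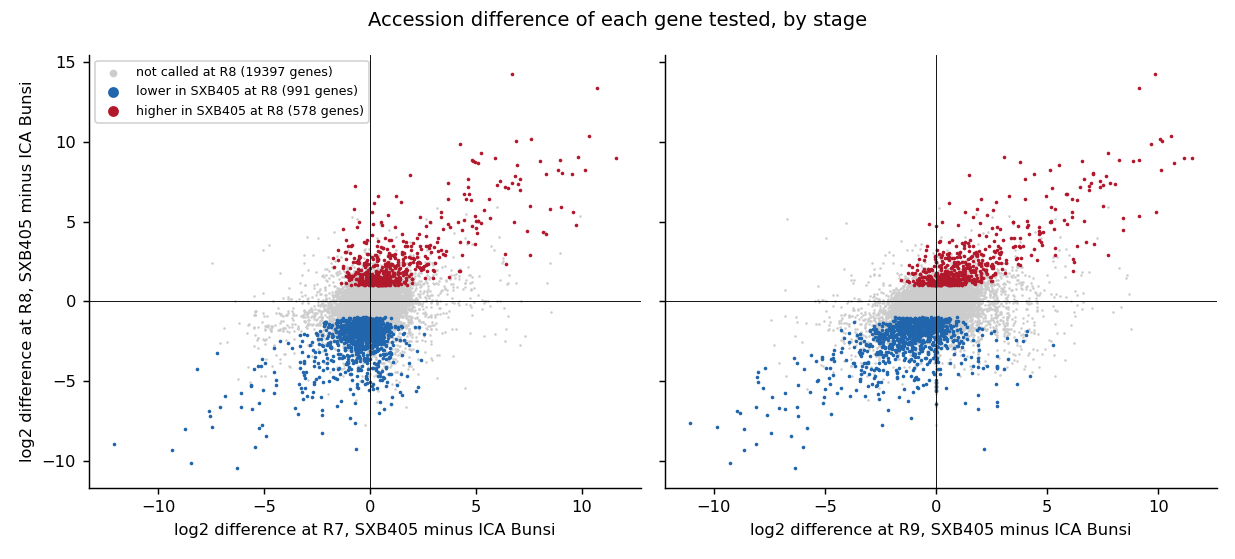
Log2 difference, SXB405 minus ICA Bunsi, at R8 (vertical axis) against that at R7 (left panel) and R9 (right panel) for the 20966 genes tested, 1 point per gene. Red points are the 578 genes higher at R8, blue points the 991 lower ones; the red points have a median of 0.68 at R7 and 0.86 at R9, and the blue ones -0.37 and -0.97.

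Across all 3 stages, 98 genes were higher (17% of the R8 list) and 76 lower (7.67%). Phvul.002G317500 was lower in every SXB405 library at each stage. It had 1.05, 1.33 and 2.16 CPM in SXB405 at R8 and 20.5, 23.3 and 25 CPM in ICA Bunsi, and its log2 difference was -4.93 at R7, -3.9 at R8 and -3.14 at R9 (edgeR adjusted p = 6.21e-12, 2.71e-10 and 4.64e-08). In G12873 and MIDAS it averaged 25.3 and 18 CPM at R8, close to the 23 CPM of ICA Bunsi. Phvul.011G014301 had 2.28, 0.77 and 1.31 CPM in SXB405 at R8 and 16.7, 13 and 29.2 CPM in ICA Bunsi, with log2 differences of -3.09, -3.78 and -4.58 at the 3 stages (edgeR adjusted p = 5.78e-05, 8.02e-06 and 2.03e-06). It too did not overlap between the accessions at R8. Phvul.010G144300 and Phvul.004G158200 led the genes higher at all 3 stages among those that averaged 1 CPM or more in both R8 groups, with log2 differences of 4.62, 7.65 and 6.67 and of 7.1, 7.69 and 3.99 at R7, R8 and R9.

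Whether a gene's difference at R8 was itself different from that at another stage was tested by an interaction term. Against R7, the difference was more positive at R8 in 66 genes (0.315% of the genes tested) and more negative in 168 (0.801%), 1.12% together. Against R9 it was more positive in 108 (0.515%) and more negative in 28 (0.134%), 0.649% together. Of the 991 lower genes, 112 had a more negative difference at R8 than at R7 and 14 than at R9. Of the 578 higher genes, 40 had a more positive one than at R7 and 33 than at R9. The R8 libraries enter both the R8 call and this test, so the choice of genes favours these counts. The counts of this test moved widely when a library was left out, between 39 and 735 genes for R7 and between 0 and 532 for R9. The 0 came without SXB405 replicate 2, where 2617 genes had an unadjusted p under 0.05; for the same contrast with all libraries DESeq2 called 702 genes and limma-voom 74. The count for R7 was 735 without SXB405 replicate 1, 39 without replicate 2 and 45 without replicate 3, and 145 without ICA Bunsi replicate 1 and 56 without replicate 2. The count for R9 was 532 without SXB405 replicate 1 and 15 without replicate 3, and 6 without ICA Bunsi replicate 1 and 4 without replicate 2.

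Changes were ranked among called genes that averaged 1 CPM or more in both R8 groups and had R8 libraries without overlap. In that ranking Phvul.011G205000 had the most negative change against R7. It had 39.2, 12.5 and 33.4 CPM in SXB405 at R8 and 5.18, 8.07 and 3.52 CPM in ICA Bunsi. At R7 it had 666, 299 and 398 CPM in SXB405 and 5.65, 6.55 and 2.87 CPM in ICA Bunsi. SXB405 was above ICA Bunsi at both stages, by 2.34 ± 0.5 at R8 and 6.43 ± 0.59 at R7 on the log2 scale, and the change between them of -4.09 ± 0.71 (edgeR adjusted p = 0.0044) was called in each of 14 alternatives. ICA Bunsi averaged 5.59 CPM at R8 and 5.02 CPM at R7.

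Phvul.001G177700 was lower in SXB405 at R8 and higher in SXB405 at R7. It had 5.43, 4.27 and 4.16 CPM in SXB405 at R8 and 13.2, 6.36 and 23.7 CPM in ICA Bunsi, and at R7 21, 18.8 and 21.8 CPM in SXB405 and 4.81, 3.61 and 3.83 CPM in ICA Bunsi. The accessions did not overlap at either stage, and the direction was opposite. The log2 difference was -1.64 ± 0.49 at R8 (edgeR adjusted p = 0.0331) and 2.31 ± 0.52 at R7 (edgeR adjusted p = 0.00633). The call at R8 was lost in 7 of 16 alternatives, with a log2 difference of -1.08 (edgeR adjusted p = 0.208) without ICA Bunsi replicate 3. The change of -3.95 ± 0.71 between R7 and R8 (edgeR adjusted p = 0.00653) was called in each of 14 alternatives. That between R9 and R8, -3.05 ± 0.69 (edgeR adjusted p = 0.0396), was lost in 9 of 14.

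Phvul.006G061800 was lower in SXB405 at R8, with 2.38, 1.75 and 2.54 CPM against 5.46, 12.6 and 5.03 CPM in ICA Bunsi. At R9 it was higher in SXB405, with 2.18, 2.85 and 3.16 CPM against 0.472, 0.796 and 0.936 CPM in ICA Bunsi. Those ICA Bunsi values were only 1, 10 and 1 counts, so the opposite direction at R9 rests on values near 0. The libraries did not overlap at either stage. Its difference changed by -3.66 ± 0.64 on the log2 scale against R9 (edgeR adjusted p = 0.0135), a call lost in 4 of 14 alternatives. In SXB405 its R8 and R9 libraries were all below the 42.1, 56.5 and 76.3 CPM of SXB405 at R7.

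In the same ranking Phvul.008G005500 and Phvul.003G117200 had the most positive changes against R7. Phvul.008G005500 had 4.85, 19 and 12.6 CPM in SXB405 at R8 and 1.41, 1.79 and 1.09 CPM in ICA Bunsi. At R7 it had 11.9, 14.5 and 13.7 CPM in SXB405 and 22.3, 33.5 and 36.1 CPM in ICA Bunsi. The ICA Bunsi libraries were lower at R8 than at R9, where they held 17, 25.4 and 29 CPM, and the change against R7 was 4.27 ± 1.04 (edgeR adjusted p = 0.041). Phvul.003G117200 had 17.3, 211 and 87 CPM in SXB405 at R8 and 3.11, 1.06 and 7.13 CPM in ICA Bunsi. The groups were apart with a wide spread in SXB405, and the change against R7 was 4.22 ± 1.04 (edgeR adjusted p = 0.0423). These calls were lost in 9 and 7 of 14 alternatives.

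Against R9, Phvul.010G163600 and Phvul.004G040200 had the most positive changes of the genes so ranked. Phvul.010G163600 had 6, 16.8 and 21.3 CPM in SXB405 at R8 and 1.79, 0.245 and 1.93 CPM in ICA Bunsi. At R9 it had 6.25, 20.2 and 14.5 CPM in SXB405 and 20.8, 14.8 and 19.6 CPM in ICA Bunsi. The accessions were apart at R8 and overlapped at R9, and the change was 3.88 ± 0.75 (edgeR adjusted p = 0.0272). In G12873 and MIDAS its R8 mean was 0.059 and 0.141 CPM. Phvul.004G040200 had 9.52, 38.4 and 20.7 CPM in SXB405 at R8 and 1.04, 1.71 and 2.1 CPM in ICA Bunsi, while at R9 it averaged 12.1 ± 4.2 CPM in SXB405 against 11.7 ± 4.21 CPM in ICA Bunsi (SD, n = 3 each). It was apart at R8 and overlapped at R9, and the change was 3.64 ± 0.62 (edgeR adjusted p = 0.0135). These calls were lost in 6 and 5 of 14 alternatives.

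The R8 lists were then set against genes that follow the stage in the other accessions. Stage genes were those called between R9 and R7 in the same direction in both G12873 and MIDAS. Those libraries enter neither side of the difference between SXB405 and ICA Bunsi, although they share its filter and its estimate of the spread. These were 1614 genes that rose (7.7% of the genes tested) and 1963 that fell (9.36%). In G12873 30% of the genes were called between R9 and R7, and in MIDAS 39.8%. In G12873 at R7 the co-varying set took 86.46% and 69.93% of the counts in replicates 1 and 2. That left 275179 and 687090 other counts there, against 9976502 in replicate 3, so the R7 side of G12873 rests mostly on replicate 3. In MIDAS at R9 the set took 61.99% in replicate 1. Of the 991 genes lower in SXB405, 391 (39.5%) were stage genes that fell and 44 (4.44%) stage genes that rose. Of the 578 higher genes, 135 (23.4%) were stage genes that rose and 28 (4.84%) stage genes that fell. The other 556 lower and 415 higher genes were in neither set.

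The share in the lower list was smaller in the fit on only the 6 libraries compared, with 61 of 289 genes (21.1%) that fell and 24 (8.3%) that rose. It also depended on ICA Bunsi replicate 2. Without it, 108 of the 438 genes in the lower list (24.7%) were stage genes that fell, and 53 of the 311 in the higher list (17%) stage genes that rose. Among the genes called whichever library was left out, 76 of the 232 lower ones (32.8%) were stage genes that fell and 45 of the 212 higher ones (21.2%) stage genes that rose. The 391 lower genes that fall with the stage had a median log2 difference of -2.07 at R8, against -0.15 at R7 and -0.73 at R9. Their R8 call selected them, so their R8 median is large by construction. Over all 1963 genes that fall the medians were -0.84 at R8, 0 at R7 and -0.15 at R9. The 135 higher genes that rise with the stage, selected in the same way, had 1.66 at R8, 0.42 at R7 and 0.41 at R9. Over all 1614 genes that rise the medians were 0.21, 0.09 and -0.14 at R8, R7 and R9.

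A value for each library was formed as the median log2 CPM of the 1614 rising genes minus that of the 1963 falling genes. At R7 it was -0.56, -0.77 and -0.91 in SXB405 and -1.03, -0.79 and -0.72 in ICA Bunsi. At R8 it was 2.5, 3.05 and 3.03 in SXB405 and 2.1, 0.83 and 2.52 in ICA Bunsi, and at R9 3.81, 3.88 and 3.99 in SXB405 and 3.29, 3.97 and 3.67 in ICA Bunsi. At R8 the accessions overlapped, since ICA Bunsi replicate 3 was just above SXB405 replicate 1, while ICA Bunsi replicate 2 lay between R7 and the other R8 libraries. Over the stage genes not called at R8 the values were 2.4, 2.68 and 2.79 in SXB405 and 2.2, 1.1 and 2.69 in ICA Bunsi. Leaving out the called genes draws the accessions nearer to each other largely by construction. Accession and the progress of the pods within R8 cannot be told apart in these libraries.

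**Figure D4:**
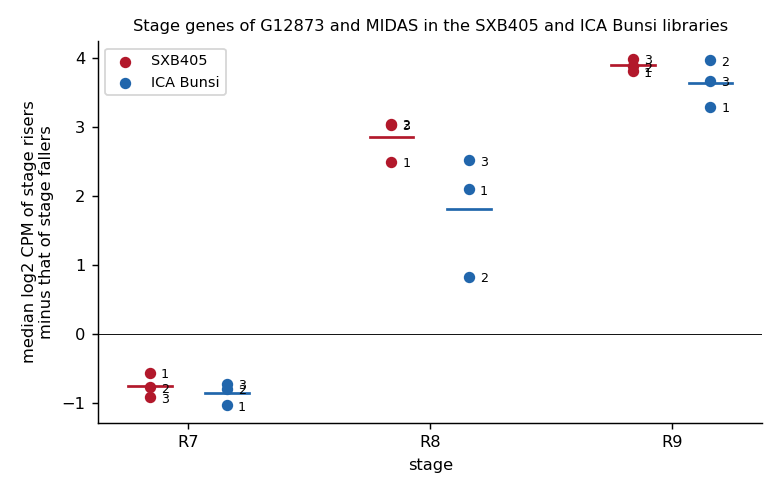
Median log2 CPM of the 1614 genes that rise between R7 and R9 in G12873 and MIDAS minus that of the 1963 that fall (vertical axis), by stage, for each library of SXB405 (red, left) and ICA Bunsi (blue, right); numbers are replicates and bars are group means. At R8 the SXB405 libraries lie between 2.5 and 3.05, and ICA Bunsi replicate 2 is lowest at 0.83.

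The R8 levels in G12873 and MIDAS were also compared with those of the 2 accessions. For each gene it was counted whether its mean log2 CPM in G12873, or in MIDAS, was nearer to that of SXB405 or of ICA Bunsi. For the 991 lower genes MIDAS was nearer ICA Bunsi in 745 (75.2%), against 59.9% of all genes tested, and G12873 nearer SXB405 in 600 (60.5%), against 52.9%. Both held in 493 of the lower genes (49.7%), against 31.7% of all genes. For the 578 higher genes MIDAS was nearer ICA Bunsi in 377 (65.2%) and G12873 nearer SXB405 in 308 (53.3%), and both held in 182 (31.5%). The genes called at all 3 stages differed from this. Of the 76 lower ones, G12873 was nearer SXB405 in 31 (40.8%) and MIDAS nearer ICA Bunsi in 45 (59.2%). Of the 98 higher ones, G12873 was nearer SXB405 in 60 (61.2%) and MIDAS nearer ICA Bunsi in 48 (49%).

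The identifiers carry a chromosome and an order along it. The share of tested genes called at R8 ranged from 5.81% on chromosome 9 to 9.63% on chromosome 5, with 9.14% on chromosome 11 and 8.99% on chromosome 4. Genes called in the same direction at all 3 stages were 174 of the 20966 genes tested. They were 28 on chromosome 4 (2.15%), 24 on chromosome 11 (1.53%) and 4 on chromosome 9 (0.186%). The next highest share was 0.986%, on chromosome 5. In windows of 20 neighbouring tested genes the median was 1 called gene, and 2 of 1028 windows held 8. Runs of at least 3 neighbouring tested genes called in 1 direction numbered 4 for higher genes, with 15 genes, and 7 for lower genes, with 21. Chromosome 11 held 3 of the lower runs and chromosome 4 held 2 of the higher ones.

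The longest run was 6 genes on chromosome 4, from Phvul.004G157900 to Phvul.004G158400, all higher in SXB405. This run was chosen after its values were seen. Phvul.004G158000 had 7780, 18273 and 16945 CPM in SXB405 at R8 and 1.04, 0.163 and 1.01 CPM in ICA Bunsi. The groups were very far apart, with a log2 difference of 14.24 ± 1.04 (edgeR adjusted p = 7.79e-11). It differed in the same direction at R7, by 6.71 ± 0.79, and at R9, by 9.87 ± 0.89, and its R8 difference was larger than that at R7 by 7.53 ± 1.01 (edgeR adjusted p = 0.000145) in each of 13 alternatives. In SXB405 it averaged 550 CPM at R7, 14333 CPM at R8 and 15496 CPM at R9, and in ICA Bunsi 5.71, 0.735 and 17 CPM. At R8 it averaged 10444 CPM in G12873 and 73.9 CPM in MIDAS, so G12873 was near SXB405.

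The neighbours Phvul.004G158200 and Phvul.004G158300 were also higher in SXB405 and G12873 than in ICA Bunsi and MIDAS at R8, in group means. Phvul.004G158200 averaged 716 CPM in SXB405, 694 CPM in G12873, 3.45 CPM in ICA Bunsi and 2.62 CPM in MIDAS. Phvul.004G158300 averaged 435 CPM in SXB405, 1046 CPM in G12873, 0.0272 CPM in ICA Bunsi and 1.44 CPM in MIDAS. These 3 genes were called higher in SXB405 at all 3 stages and in each alternative at R8. Neighbouring genes with similar sequence would share reads, and whether these do was not tested.

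The other members of the run were lower and differed less. Phvul.004G157900 had 21.6, 29.2 and 21.5 CPM in SXB405 and 11.4, 6.85 and 12.8 CPM in ICA Bunsi, and Phvul.004G158400 had 35.4, 45 and 47 CPM in SXB405 and 18.7, 13.5 and 21.9 CPM in ICA Bunsi. Neither overlapped between the accessions, with log2 differences of 1.22 ± 0.32 and 1.23 ± 0.38 (edgeR adjusted p = 0.0133 and 0.0374), and neither was called at R7 or R9. Phvul.004G158100 had 0.381, 7.77 and 3.85 CPM in SXB405 and 0, 0 and 0.0839 CPM in ICA Bunsi, 1 count. Without SXB405 replicate 2 or without ICA Bunsi replicate 2, none of these 3 genes was called.

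**Figure D5:**
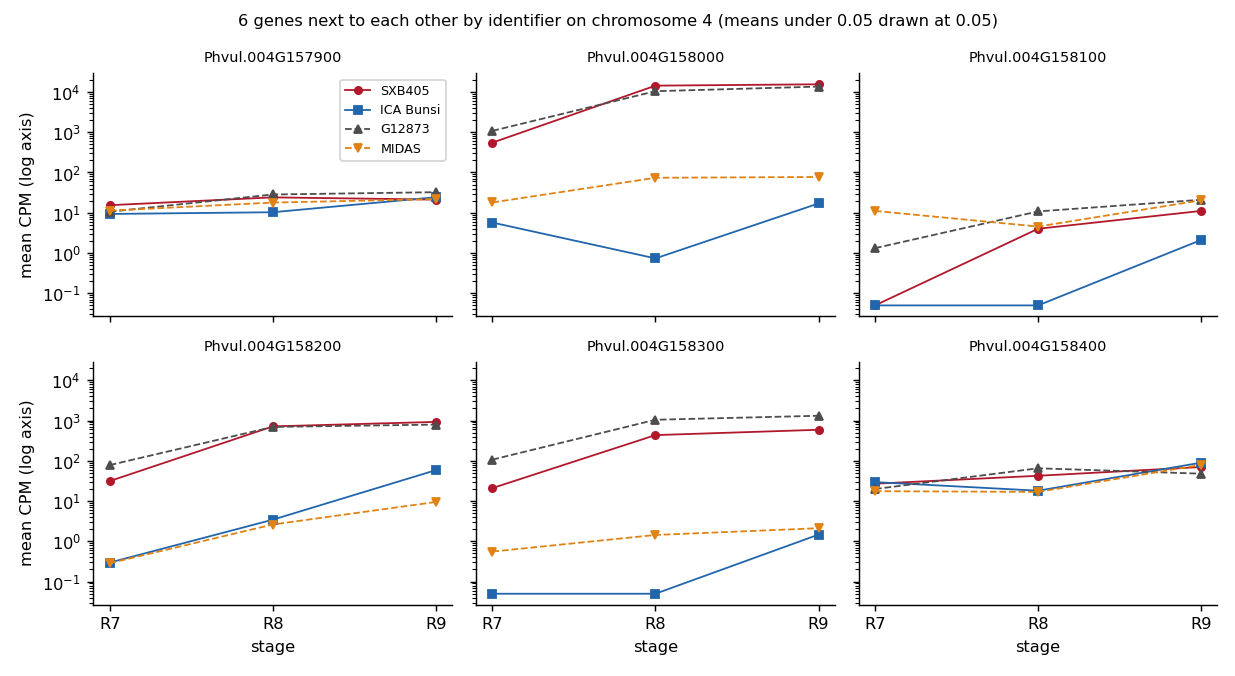
Mean CPM (vertical log axis, n = 3 libraries a point) by stage for 6 genes that follow each other by identifier on chromosome 4, 1 panel a gene, in SXB405 (red), ICA Bunsi (blue), G12873 (grey) and MIDAS (orange). In the panels of Phvul.004G158000, Phvul.004G158200 and Phvul.004G158300 SXB405 lies with G12873 and above ICA Bunsi and MIDAS at all stages. At R8 Phvul.004G158000 averages 14333 CPM in SXB405 against 0.735 CPM in ICA Bunsi. The R7 points of G12873 include replicates 1 and 2, with 86.46% and 69.93% of their counts in the co-varying set.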

How the data were processed

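Per the labels' protocols, TruSeq libraries of total pod RNA were read over 75 bases. The deposited table of each library gives an estimated count and a TPM for 36995 transcripts; the authors left the estimated counts unnormalized. TPM was also deposited by the authors and is scaled for transcript length and library size. The submitters' processing notes name kallisto, limma and edgeR. The genome build, annotation and use of strand were not given in the sources used here, so antisense partners and near-identical genes are uncertain.

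Estimated counts were summed per gene (identifier without its last number), rounded and tested with edgeR 4.0.16 in R 4.3.3. The fit used TMM scaling, filterByExpr (minimum count 10, minimum total 15) and a robust quasi-likelihood fit over 36 libraries in 12 groups. The filter kept 20966 of 27433 genes and removed 6467. P-values were adjusted over all genes tested by the Benjamini-Hochberg method, and a call also needed a log2 difference of at least 1 in size. Each contrast's F statistic gave the standard error, and the prior count for log2 CPM was 2. A fitted log2 difference of a gene near 0 in 1 group depends on the fit and is no bound. TPM values entered no test. The test was checked on simulated data.

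Named genes were 2 higher and 2 lower for each of 6 rankings. These were the R8 difference, its change against R7, its change against R9, the smallest difference over 3 stages, near-absence in 1 accession (under 3 counts a library) and the highest TPM. The first 4 required a mean of 1 CPM in each R8 group, and the first 3 also R8 libraries that did not overlap. The genes, lists and tests were chosen with earlier results of these data known. Gene lists by function were not run, since 0 identifiers matched a reference table of 34165 genes.

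Alternatives were transcripts in place of genes, RLE size factors, limma-voom from limma 3.58.1, DESeq2 1.42.0, a replicate block, no minimum fold, all genes with a count, and removal of the 50 highest genes. Others used fewer libraries: those at R8, those compared, those with at most 50% co-varying counts, and all but 1 R8 library in turn. Leaving 1 library out leaves 2 in its group. No pair of R8 replicates of SXB405 or of ICA Bunsi agreed within sampling noise. The co-varying set holds those of the 50 highest genes with a Spearman correlation over 0.9 to the first. Tables were read with Python 3.11.15 and pandas 2.3.3 and plots drawn with matplotlib 3.10.9.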

Additional observations from a re-analysis of the deposited data

Results flagged for a closer look

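In 8 of the named genes the difference between SXB405 and ICA Bunsi at R8 differed from that at another stage by an interaction test (edgeR, adjusted p under 0.05). Against R7 the change in log2 difference was 7.53 in Phvul.004G158000, 4.27 in Phvul.008G005500 and 4.22 in Phvul.003G117200. It was -4.09 in Phvul.011G205000, -3.95 in Phvul.001G177700 and -2.42 in Phvul.006G061800. Against R9 it was 4.37 in Phvul.004G158000, 3.88 in Phvul.010G163600 and 3.64 in Phvul.004G040200, and -3.66 in Phvul.006G061800 and -3.05 in Phvul.001G177700. Of these 11 changes, the calls in Phvul.004G158000, Phvul.011G205000 and Phvul.001G177700 against R7 were made in each alternative run for them, and the other 8 were lost in at least 2. Most of these genes were named because they ranked highest in this test, so the size of their change is not independent of the choice.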

How the results depend on the processing

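The R8 count of 1569 genes moved to 550 with transcripts in place of genes, of which 47.5% were higher against 36.8% with genes, and to 501 in a fit on the 6 libraries alone. With each library left out it lay between 564 and 2644. The count of changes against R7, 234, moved to 524 with DESeq2, 511 with limma-voom, 17 with transcripts, 1136 in a fit on only the libraries compared and 389 without the libraries with over 50% co-varying counts, and lay between 39 and 735 with a library left out. The count against R9, 136, moved to 702 with DESeq2, 74 with limma-voom, 250 with RLE, 71 without a low-count filter, 3 with transcripts and 65 with the replicate block. It was 0 both on only the libraries compared and without the libraries over 50%, where 3149 and 1747 genes had an unadjusted p under 0.05, and it lay between 0 and 532 with a library left out. The count over all 3 stages, 174, moved to 99 with transcripts and 111 without the libraries over 50%, and lay between 150 and 180 with a library left out. The causes were not tested, beyond the fewer libraries or counts that a setting leaves by construction.

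With the replicate block the R8 count was 1459, the count against R7 199 and that over 3 stages 164. Deviations of same-numbered libraries correlated at 0.0541, -0.0964 and 0.16. SXB405 replicates 1 and 2 correlated better with another number, and replicate 3 best with its own. Correlations this weak over so few libraries cannot decide whether same-numbered libraries share a batch. Of 378 values of 24 named genes under the alternatives, 321 kept direction and call, 57 lost the call and none changed direction. Depth limits the genes under 3 counts, and single libraries limit the counts of calls.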

Other observations

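Among 4279 genes with several transcripts tested, 1 had transcripts called in opposite directions at R8. Transcript 1 of Phvul.006G180100 had 4.66, 11.8 and 11 CPM in SXB405 and 1.7, 3.75 and 1.26 CPM in ICA Bunsi. Transcript 2 had 1.52, 0.7 and 1.77 CPM in SXB405 and 8.67, 5.79 and 9.48 CPM in ICA Bunsi. Neither overlapped between the accessions, and the log2 differences were 2.01 and -2.59 (edgeR adjusted p = 0.0451 and 0.0232). The gene sum differed by 0.05 (edgeR adjusted p = 0.947). The estimated counts of transcripts of 1 gene share reads, and the gene was chosen after its values were seen.

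The 2 windows of 20 tested genes with 8 called genes were on chromosome 11. There, 2 runs of 3 neighbouring lower genes lay near each other, from Phvul.011G182500 to Phvul.011G182700, with log2 differences from -8.43 to -3.86, and from Phvul.011G183300 to Phvul.011G183500, from -9.15 to -6.14. On chromosome 4 a run of 3 higher genes from Phvul.004G009000 to Phvul.004G009100 was called at all 3 stages, with log2 differences at R8 from 4.5 to 8.86. These runs were chosen after their values were seen.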
